A study of Homo sapiens with 9 samples.

Results

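The genes of cholesterol and fatty acid synthesis were followed in TCam-2 cells, a human seminoma line that grows as a permanent culture, before and after transfection and after activation of the ESX1 gene. The set holds 31 named genes, chosen by symbol as the enzymes of the pathway, its regulators and its sterol-responsive neighbours, out of 63856 genes listed in the count table. All 31 had enough counts to be tested, among 18452 tested genes. By role, 8 belong to the mevalonate arm, 10 to the sterol arm, 4 to fatty acid synthesis, 4 to the regulation of SREBP, 2 are other SREBP targets, and 3 are efflux genes and targets of LXR. RNA-seq was made from total RNA of 9 samples in 3 groups of 3 biological replicates. Wild-type cells (WT) carried no modification. Negative control cells (NC) were transfected with a GFP-bearing vector for nonspecific gRNAs. Cells with the activated gene (ESX1) received the same kind of vector with gRNAs for the region upstream of ESX1, together with a plasmid for dCas9-VPR, a nuclease-dead Cas9 fused to transcriptional activators. The transfected cells were lipofected, kept under puromycin and doxycycline, and collected 72 h after transfection as pools in which some cells carried GFP and others did not. For NC, the methods name the gRNA vector and not the dCas9-VPR plasmid. In NC against WT the gRNA vector, lipofection, antibiotic and doxycycline therefore cannot be told apart, and in ESX1 against NC neither can the target of the gRNAs and the dCas9-VPR plasmid.

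Cells build cholesterol from acetyl-CoA. The mevalonate arm makes isoprenoid units and squalene, and the sterol arm oxidizes and closes squalene into lanosterol and trims it to cholesterol. The transcription factors SREBP-1 and SREBP-2 drive most of these genes. SCAP escorts them out of the endoplasmic reticulum when sterols are scarce, and INSIG proteins hold them there when sterols are plentiful. LXR, a receptor for oxidized sterols, drives genes that export cholesterol. In the testis, Leydig cells start from cholesterol to make steroid hormones, and germ cells carry out late steps of sterol synthesis themselves.

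The libraries held between 5212804 counts (ESX1 replicate 3) and 10644408 counts (WT replicate 3), and the members had from 19 counts (CYP51A1 and ABCG1) to 8202 counts (FASN) in a library. Levels are given as normalized CPM, in which every library is brought to the same total after TMM scaling. The activated gene itself was at 3.60, 4.08 and 3.13 CPM in WT, 3.63, 2.89 and 3.46 CPM in NC, and 57.0, 55.7 and 31.4 CPM in ESX1, so the ESX1 libraries followed their label. WT and NC overlapped, so this gene cannot check those labels against each other. The summed level of 8 seminoma markers, all of them tested, was 3631 to 4428 CPM in WT, 2673 to 2869 in NC and 1481 to 1811 in ESX1. Mitochondrial genes took 17.02% to 18.33% of the counts in WT, 14.45% to 15.25% in NC and 19.2% to 19.87% in ESX1. Embryonal carcinoma markers summed to 3.34 to 8.31 CPM in WT, 6.94 to 12.6 in NC and 5.98 to 10.3 in ESX1 (1 of 3 tested). Fibroblast markers summed to 183 to 337 CPM, 133 to 169 CPM and 108 to 227 CPM in the same order (2 of 5 tested). Most of that sum was COL1A2, which was lower in NC and in ESX1 than in WT (log2 -0.90 in both, adjusted p = 0.0163 and 0.0100), while COL1A1 was higher, at 2.33 to 5.68 CPM in WT, 15.5 to 20.0 in NC and 9.96 to 29.7 in ESX1 (log2 2.19 and 2.27, adjusted p = 7.08e-04 and 2.36e-04). Sertoli and Leydig cell markers stayed between 14.4 and 34.8 CPM in all libraries (2 of 6 tested), with HSD3B2 and INSL3 at 0, and leukocyte markers reached 1.04 CPM at most (0 of 4 tested), with CD3E at 0. The part of these differences in the results below was not tested. In such bulk samples, fewer cells with a gene and less of its RNA per cell cannot be told apart.

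Most of the 31 genes were lower in NC than in WT. At an adjusted p below 0.05 (edgeR's quasi-likelihood test, Benjamini-Hochberg over all tested genes), 16 members were lower in NC, where 10.3% of all tested genes were lower, and 1 member was higher, where 6.82% were. Another 14 did not pass. The median log2 fold change of the members was -0.53, beside 0.01 over all tested genes. Past a change of at least 2-fold as well were 6 members, all of them lower (2.15% of all tested genes), namely IDI1, FDFT1, SQLE, MSMO1, DHCR7 and INSIG1. In 15 members every NC sample lay below every WT sample (20.0% of all tested genes), and in 1 member every NC sample lay above (17.6%). Of all tested genes, 1259 were higher and 1899 lower in NC, a split that turned to 1751 higher and 1426 lower with upper-quartile scaling, which moved the median of all genes to 0.10. The members still stood at 14 lower and 1 higher under that scaling, and at 15 lower and 1 higher with mitochondrial genes removed. Of the 8 seminoma markers 7 were lower in NC as well, and their part in the result was not tested.

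**Figure D1:**
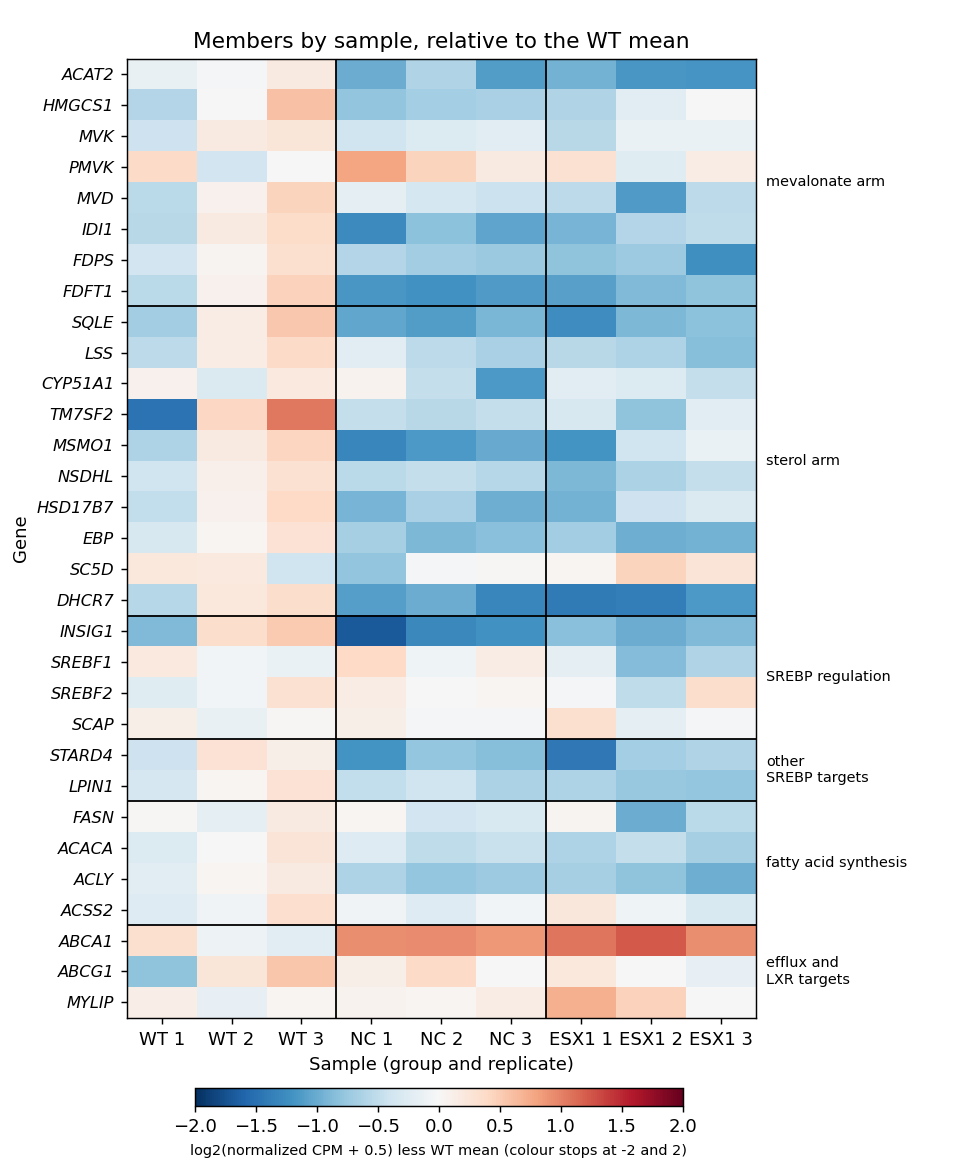
Heat map of the 31 members (rows, grouped by role) in the 9 samples (columns), coloured by log2 of normalized CPM plus 0.5, less the mean of the 3 WT samples of the same gene. The blue fields of NC and ESX1 fill most of the mevalonate and sterol arms, ABCA1 is red in all 6 transfected samples, and WT replicate 1 is bluer than WT replicates 2 and 3 in the sterol arm.

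INSIG1, which retains the SREBP escort in the endoplasmic reticulum and is itself an SREBP target, had the lowest log2 fold change of the members in NC against WT. In GRCh38 it spans chr7:155297776-155310235 on the plus strand. It was at 14.1, 34.1 and 38.4 CPM in WT replicates 1 to 3, and at 7.88, 10.6 and 11.1 CPM in NC. Every NC value was below every WT value, and WT replicate 1 was the nearest to them. On the log2 scale NC differed by -1.55 ± 0.278 (SE), a 2.92-fold lower level (adjusted p = 0.00115, edgeR).

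In the mevalonate arm, 5 of 8 genes were lower in NC and the median log2 fold change was -0.75. FDFT1, squalene synthase, which commits the pathway to sterols, was at 152, 235 and 304 CPM in WT and at 98.4, 95.5 and 101 CPM in NC. The NC samples were close together and the WT samples spread wide, without overlap (-1.23 ± 0.179 SE on the log2 scale, adjusted p = 2.19e-04). IDI1, the isomerase that makes the reactive isoprenoid unit, was at 47.3, 78.7 and 89.6 CPM in WT and at 28.5, 39.0 and 33.2 CPM in NC. The groups again did not overlap (-1.10 ± 0.197 SE on the log2 scale, adjusted p = 0.00112). ACAT2, the thiolase at the entry of the pathway, was at 8.41, 9.18 and 10.7 CPM in WT and at 4.46, 6.0 and 4.07 CPM in NC, which gave -0.96 (adjusted p = 0.0124). HMGCS1, which makes HMG-CoA, and FDPS, which makes farnesyl diphosphate, were lower by smaller steps, at -0.79 (adjusted p = 0.0163) and -0.71 (adjusted p = 0.00700). The kinases MVK and PMVK and the decarboxylase MVD did not pass, at -0.33, 0.47 and -0.38.

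In the sterol arm, 6 of 10 genes were lower in NC, with a median of -0.84. SQLE, squalene epoxidase, which adds the first oxygen of the sterol skeleton, was at 101, 181 and 238 CPM in WT and at 79.1, 74.9 and 86.4 CPM in NC. The groups did not overlap and WT replicate 1 was again the WT sample nearest to NC (-1.11 ± 0.212 SE on the log2 scale, adjusted p = 0.00173). MSMO1, the methylsterol monooxygenase, was at 54.5, 95.2 and 113 CPM in WT and at 33.7, 37.6 and 41.4 CPM in NC, without overlap (-1.22 ± 0.242 SE on the log2 scale, adjusted p = 0.00240). DHCR7, the reductase of the last step to cholesterol, lies on the minus strand of chromosome 11 from 71428193 to 71452868. It was at 32.6, 56.3 and 62.5 CPM in WT and at 22.5, 24.2 and 19.4 CPM in NC. Its 2.29-fold lower level (-1.19 ± 0.200 SE on the log2 scale, adjusted p = 6.43e-04) was of about the size of those of SQLE and MSMO1. HSD17B7 (-0.92, adjusted p = 0.0116), EBP (-0.82, adjusted p = 0.00176) and NSDHL (-0.57, adjusted p = 0.0440), which reduce, isomerize and demethylate sterol intermediates, were lower as well. LSS, the cyclase that forms lanosterol, reached -0.50 with an adjusted p of 0.0681, and the demethylase CYP51A1, the reductase TM7SF2 and the desaturase SC5D did not pass either, at -0.51, -0.85 and -0.25.

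The regulators of the pathway did not move as a block. INSIG1 was the 1 of 4 that passed in NC against WT. SREBF2, which encodes SREBP-2, was at 63.2, 72.2 and 92.7 CPM in WT and at 83.1, 75.6 and 77.0 CPM in NC, with overlapping samples (log2 0.05, 95% interval -0.32 to 0.42). SCAP was at 74.8, 62.4 and 70.0 CPM in WT and at 74.7, 67.1 and 67.0 CPM in NC (0.01, interval -0.27 to 0.29). SREBF1, which encodes SREBP-1, was at 0.16 (interval -0.19 to 0.52). The 2 other SREBP targets were both lower, STARD4, a carrier of sterols between membranes, at -0.97 (adjusted p = 0.00468) and LPIN1, a phosphatidate phosphatase, at -0.53 (adjusted p = 0.0178).

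Of the 4 genes of fatty acid synthesis, 2 were lower in NC. ACLY, the citrate lyase that supplies acetyl-CoA to both pathways, was at 381, 457 and 501 CPM in WT and at 289, 260 and 267 CPM in NC, without overlap (-0.71 ± 0.120 SE on the log2 scale, adjusted p = 6.80e-04). ACACA, the carboxylase that makes malonyl-CoA, was at -0.41 (adjusted p = 0.0398), with overlapping samples. FASN, the fatty acid synthase, was at 763, 656 and 857 CPM in WT and at 775, 581 and 611 CPM in NC, and ACSS2, the acetyl-CoA synthetase, at 40.2 to 61.4 CPM in WT and 40.6 to 46.4 CPM in NC. Both overlapped between the groups and did not pass, at -0.21 and -0.15.

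The 1 member that rose in NC was ABCA1, the transporter that hands cholesterol to apolipoproteins outside the cell. It lies on the minus strand of chromosome 9 from 104781002 to 104928237. It was at 71.3, 53.2 and 49.2 CPM in WT and at 109, 110 and 105 CPM in NC. The NC samples were tightly grouped above every WT sample (0.90 ± 0.136 SE on the log2 scale, adjusted p = 2.83e-04, a 1.87-fold higher level). The other two genes of its role did not pass, ABCG1, a second cholesterol transporter, at 0.08 (2.07 to 6.06 CPM in WT, 3.97 to 5.36 CPM in NC) and MYLIP, a ubiquitin ligase for lipoprotein receptors, at 0.09 (8.45 to 10.5 CPM in WT, 9.86 to 10.7 CPM in NC).

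**Figure D2:**
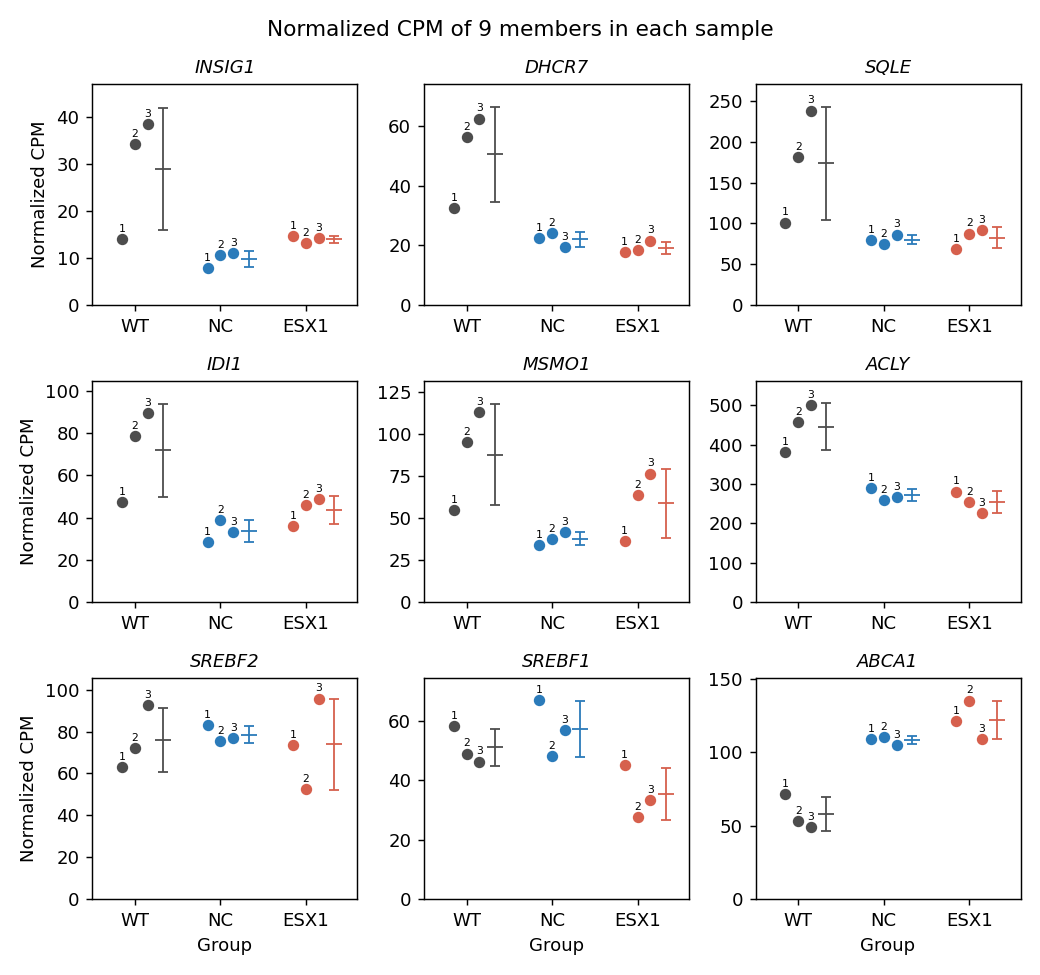
Normalized CPM of 9 members in each sample (points, numbered by replicate), with the mean and SD of the 3 replicates of each group beside them and axes from 0. WT replicate 1 is the lowest WT point for INSIG1, DHCR7, SQLE, IDI1, MSMO1, ACLY and SREBF2, the transfected groups lie low and close together for DHCR7, SQLE and ACLY, SREBF1 is lower in ESX1, and ABCA1 is higher in NC and ESX1.

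Sequence upstream of the genes is shown for the 3 members with the lowest log2 fold changes in NC against WT for which a promoter window began within 500 bases of the start in the count table, for ABCA1, which moved the other way, and for SREBF2, which encodes the regulator. The windows are those of RefSeq on GRCh38.p14, from 250 bases before to 50 bases after the annotated start, and 26 of the 31 members had one. ACAT2, FDFT1, SQLE, FASN and ABCG1 had none, and that of DHCR7 was passed over because it lay further than this from the start in the count table. Each sequence reads 5′ to 3′ on the strand of its gene from position -250 and ends before the first base of the gene in the RefSeq table or in the count table, whichever lies further upstream. Capitals mark the motifs that were searched, on either strand. These are the sterol regulatory element TCACNCCAC, the E-box CACGTG, the CCAAT box CCAAT and a direct repeat. ATTGG is thus a CCAAT box on the opposite strand. The direct repeat was spelled with a shorter spacer than the LXR element DR4, which was therefore not searched. INSIG1 covers chr7:155297628-155297775 (plus), MSMO1 chr4:165327419-165327622 (plus), IDI1 chr10:1049171-1049369 (minus), ABCA1 chr9:104928238-104928405 (minus) and SREBF2 chr22:41832855-41833078 (plus).
INSIG1: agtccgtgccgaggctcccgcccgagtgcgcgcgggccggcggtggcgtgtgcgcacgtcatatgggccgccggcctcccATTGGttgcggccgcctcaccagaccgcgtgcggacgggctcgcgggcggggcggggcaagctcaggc
MSMO1: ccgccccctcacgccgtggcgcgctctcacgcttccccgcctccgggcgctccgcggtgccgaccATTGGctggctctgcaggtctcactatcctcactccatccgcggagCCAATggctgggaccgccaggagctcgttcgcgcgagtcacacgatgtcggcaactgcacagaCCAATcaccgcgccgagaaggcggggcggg
IDI1: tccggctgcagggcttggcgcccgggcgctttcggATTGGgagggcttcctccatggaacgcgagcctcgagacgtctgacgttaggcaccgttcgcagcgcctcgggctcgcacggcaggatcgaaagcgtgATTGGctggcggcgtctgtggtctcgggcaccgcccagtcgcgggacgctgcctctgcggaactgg
ABCA1: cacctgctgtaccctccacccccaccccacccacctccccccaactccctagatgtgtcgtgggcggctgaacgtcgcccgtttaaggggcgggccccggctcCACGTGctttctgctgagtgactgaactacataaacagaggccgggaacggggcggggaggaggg
SREBF2: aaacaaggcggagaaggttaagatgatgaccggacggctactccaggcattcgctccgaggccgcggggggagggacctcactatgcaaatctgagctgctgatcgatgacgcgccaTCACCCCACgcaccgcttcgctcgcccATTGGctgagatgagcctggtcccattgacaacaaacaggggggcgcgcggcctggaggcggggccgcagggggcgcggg

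The CCAAT box was found in 18 of the 26 windows of members, while 34.61% of all 35116 windows held it. It lies upstream of MSMO1 at positions -185, -139, -76 and -34, the last of which is past the end of the printed stretch. IDI1 holds it at -215 and -117 and INSIG1 at -170. ABCA1 was among the 8 members without it. The E-box stood in 5 windows, those of ABCA1, INSIG1, LSS, SC5D and SCAP, against 7.26% of all windows, at -147 in ABCA1 and at -55 in INSIG1, past its printed stretch. The sterol regulatory element as spelled here was in 1 window, that of SREBF2 at -133, against 1.13% of all windows. The direct repeat was in 0 of 26, against 0.05%. That count says nothing about LXR elements, because the spacer searched was too short for DR4. All of these counts are of matches of letters in short windows, and no motif searched divided the lower from the other members.

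ESX1 was compared with WT to see the pathway in cells with the activated gene against cells that were never transfected. This comparison shares its 3 WT samples with the one above. Again 16 members were lower (15.8% of all tested genes) and ABCA1 was higher (12.9%), with a median log2 fold change of -0.60 over the members and 0.01 over all tested genes. Past 2-fold were 4 lower members, ACAT2, SQLE, DHCR7 and INSIG1 (4.77% of all tested genes), and ABCA1 (6.78%). In 13 members all ESX1 samples lay below all WT samples (21.3% of all tested genes) and in 1 all lay above (18.9%). Of all tested genes, 2382 were higher and 2924 lower, and with upper-quartile scaling, which put the median of all genes at 0.11, the split was 3064 higher and 2264 lower, while 15 members were lower and 1 higher. Of the seminoma markers 7 of 8 were lower in ESX1 than in WT too, all 7 by at least 2-fold, and their part in the result was not tested.

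DHCR7 had the lowest log2 fold change of the members in ESX1 against WT. It was at 17.9, 18.4 and 21.6 CPM in ESX1, far under the 32.6 CPM of the lowest WT sample (-1.39 ± 0.204 SE on the log2 scale, adjusted p = 7.82e-05, 2.62-fold lower). ACAT2 was at 4.66, 3.92 and 3.88 CPM in ESX1, also without overlap with WT (-1.17 ± 0.253 SE on the log2 scale, adjusted p = 0.00221). SQLE was at 68.4, 87.6 and 92.0 CPM in ESX1 (-1.07 ± 0.212 SE on the log2 scale, adjusted p = 0.00111). For each of these 3 enzymes every ESX1 sample lay below every WT sample. INSIG1 was at 14.6, 13.1 and 14.2 CPM in ESX1, and WT replicate 1, at 14.1 CPM, lay within that range (-1.05 ± 0.274 SE on the log2 scale, adjusted p = 0.00843).

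By role, 5 of 8 genes of the mevalonate arm were lower in ESX1 than in WT (median -0.75), 5 of 10 of the sterol arm (median -0.72), 2 of 4 of fatty acid synthesis (median -0.52), both other SREBP targets (median -0.82) and 2 of 4 regulators (median -0.29), INSIG1 and SREBF1. In the mevalonate arm FDFT1 stood at -0.98 (adjusted p = 5.49e-04), FDPS at -0.93 (adjusted p = 4.90e-04), MVD at -0.78 (adjusted p = 0.0146) and IDI1 at -0.72 (adjusted p = 0.0104). HMGCS1 did not pass here, at -0.33 (70.3, 92.8 and 107 CPM in ESX1 against 70.7, 108 and 160 CPM in WT), nor did MVK and PMVK, at -0.29 and 0.04. In the sterol arm EBP (-0.90), LSS (-0.72) and NSDHL (-0.71) were lower, and MSMO1 (-0.58, adjusted p = 0.0770) and HSD17B7 (-0.60, adjusted p = 0.0632) stayed above the threshold. CYP51A1, TM7SF2 and SC5D were at -0.37, -0.79 and 0.23, and none of the 3 passed. ACLY was at 281, 255 and 226 CPM in ESX1, a log2 fold change of -0.81 between the groups, and ACACA stood at -0.60 (adjusted p = 0.00274). FASN (-0.44) and ACSS2 (-0.06) did not pass, and FASN ranged from 377 to 780 CPM among the ESX1 samples. STARD4 and LPIN1 were lower, at -0.91 and -0.74.

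ABCA1 was at 121, 135 and 109 CPM in ESX1, 2.10-fold above WT and without overlap (1.07 ± 0.136 SE on the log2 scale, adjusted p = 1.90e-05). MYLIP was at 15.9, 13.4 and 9.61 CPM in ESX1, where replicate 3 lay inside the WT range (log2 0.45, adjusted p = 0.124). ABCG1 was at 3.51 to 4.66 CPM in ESX1 (log2 -0.07, adjusted p = 0.906).

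The comparison of ESX1 with NC sets cells with the activated gene beside cells that were transfected as well. In it the target of the gRNAs and the dCas9-VPR plasmid cannot be told apart, as given above. Of the 31 members 1 was lower, SREBF1, and 0 were higher, where 2.37% and 1.88% of all tested genes were. By edgeR, 4 of the 31 members had an unadjusted p below 0.05, and so had 2953 of the 18452 tested genes. DESeq2's Wald test also called 1 member lower and 0 higher. In the same comparison 6 of the 8 seminoma markers were lower in ESX1. No member passed with a change of at least 2-fold (1.78% of all tested genes in either direction). The median log2 fold change of the members was 0.03, with the lowest at -0.69 and the highest at 0.63. For 28 of the 31 members the 95% interval of the difference lay within 2-fold in both directions, and for 13 within 1.5-fold. The intervals of MSMO1, INSIG1 and SREBF1 reached past 2-fold.

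SREBF1, on the minus strand of chromosome 17 from 17810399 to 17837002, was at 58.2, 49 and 46.3 CPM in WT, at 67.0, 48.1 and 56.8 CPM in NC and at 45.0, 27.7 and 33.4 CPM in ESX1. All 3 ESX1 samples were below all 6 others, although ESX1 replicate 1 lay only little below the lowest of them. Against NC this was a 1.62-fold lower level (-0.69 ± 0.173 SE on the log2 scale, adjusted p = 0.0282), and against WT it was -0.53 ± 0.174 (SE, adjusted p = 0.0294). The call against NC was lost when NC replicate 1, NC replicate 3, ESX1 replicate 2 or ESX1 replicate 3 was left out, with log2 fold changes from -0.92 to -0.54 over the 9 such fits. The call against WT was lost in 5 of the 9 fits (without WT replicate 1, WT replicate 2, NC replicate 3, ESX1 replicate 2 or ESX1 replicate 3), where the values ran from -0.76 to -0.38, and also with upper-quartile scaling, with the 6 samples alone and with thinned libraries. SREBF2 stayed at 73.6, 52.5 and 95.7 CPM in ESX1, with the widest spread of the 3 groups (log2 -0.10 against NC, interval -0.47 to 0.27). SCAP was at 86.5, 60.3 and 66.7 CPM (0.03, interval -0.25 to 0.32).

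The enzymes that were lower in NC showed no common direction from NC to ESX1. MSMO1 was at 36.4, 63.7 and 76.3 CPM in ESX1 against 33.7 to 41.4 CPM in NC, the highest log2 fold change of the members at 0.63 (interval 0.12 to 1.15, adjusted p = 0.184). ESX1 replicate 1 sat within the NC range, and without it MSMO1 passed, at 0.89. HMGCS1 (0.46), FDFT1 (0.25), SC5D (0.48) and INSIG1 (0.50) had all ESX1 samples above all NC samples (10.7% of all tested genes), and MVD (-0.40) and SREBF1 had all of them below (11.8%). None of these but SREBF1 passed the test. SQLE (0.04, interval -0.41 to 0.49), EBP (-0.07, interval -0.41 to 0.26) and ACLY (-0.10, interval -0.35 to 0.16) differed little, and ABCA1 was at 0.17 (interval -0.11 to 0.45, adjusted p = 0.602).

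**Figure D3:**
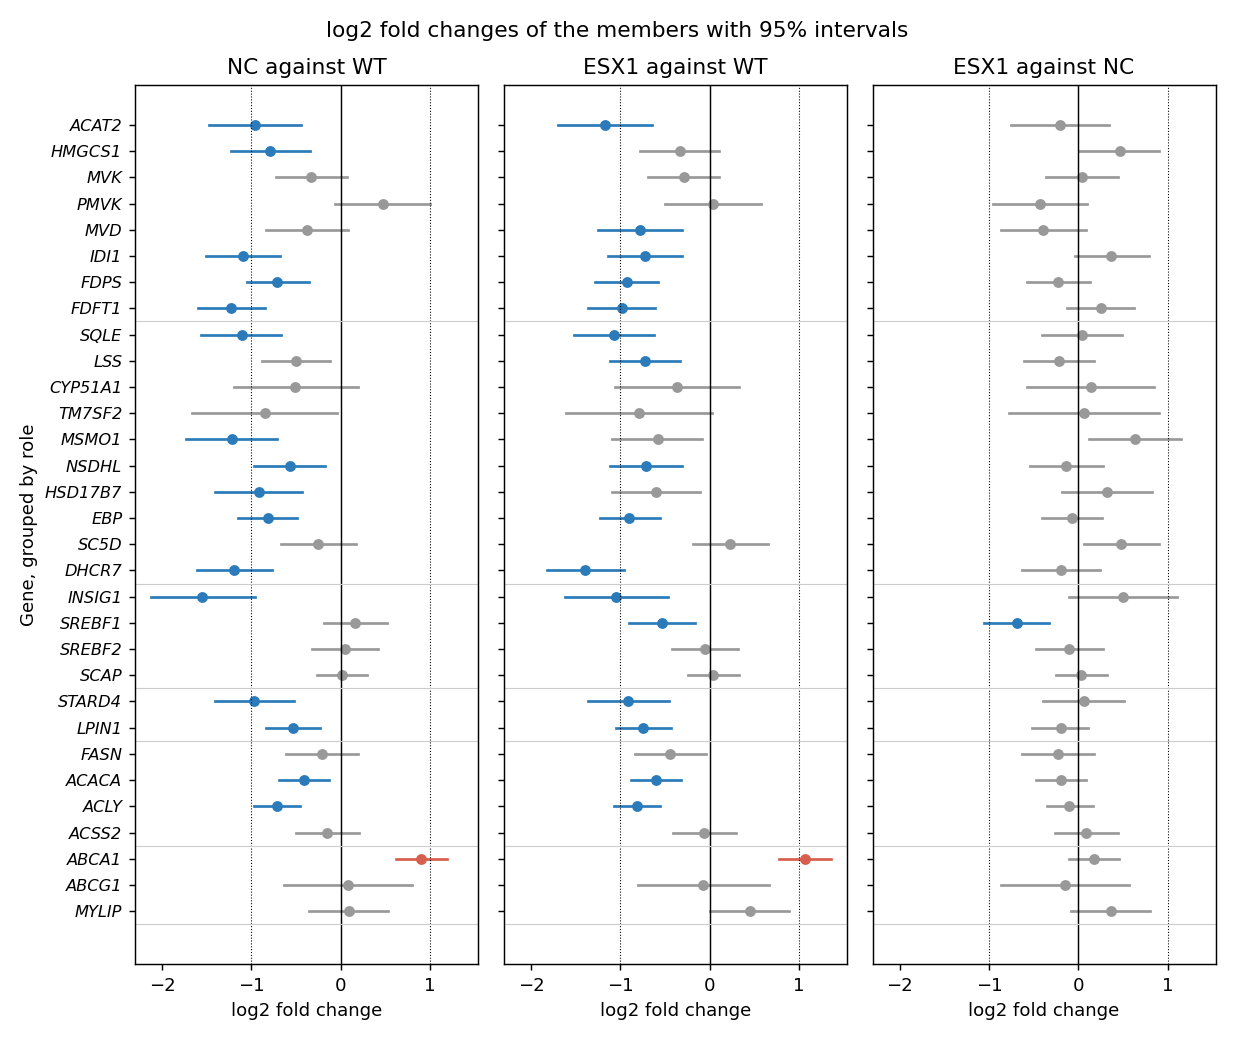
log2 fold changes of the 31 members (points) with 95% intervals (lines) in the 3 comparisons, with dotted lines at 2-fold. Blue marks members called lower, red those called higher and grey those not called; blue fills most rows against WT, and against NC the row of SREBF1 alone is blue.

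The WT replicates differed among themselves in these genes more than the transfected replicates did. Over the 18 genes of the mevalonate and sterol arms, the highest WT replicate was a median of 1.82 times the lowest, beside 1.27 times over all tested genes. Such ratios were taken after a fixed amount was added to every CPM, which lessens those of low genes most. In NC the same median was 1.19 times and in ESX1 1.32 times, where all tested genes stood at 1.22 and 1.31. WT replicate 1 was the lowest WT sample in 18 of the 22 synthesis genes (81.8%, against 38.7% of all tested genes), and WT replicate 3 was the highest in 20 of 22 (90.9%, against 35.7%). TM7SF2 was the widest case, at 6.33, 24.9 and 38.8 CPM in WT and between 10.3 and 15.9 CPM in all 6 transfected samples, so that its WT samples lay on both sides of them.

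The counts of called members depended on single libraries. Without WT replicate 1, 12 members were past 2-fold in NC against WT and 11 in ESX1 against WT, and without WT replicate 3 there were 2 and 2. The number of lower members in NC against WT fell to 10 when WT replicate 3, NC replicate 1 or NC replicate 3 was left out. NSDHL and ACACA each lost the call in NC against WT in 6 of the 9 fits (without any 1 of WT replicate 2, WT replicate 3, the 3 NC samples or ESX1 replicate 3), HMGCS1 in 4 (WT replicate 3 or any NC sample), LPIN1 in 4 (WT replicates 2 or 3, NC replicates 1 or 3), and ACAT2 and HSD17B7 in 3 (WT replicate 3, NC replicates 1 or 3). NSDHL also lost it with upper-quartile factors, with at least 10 counts in every sample, by limma, without mitochondrial genes and with thinned libraries, and ACACA with the first 2 of these. In ESX1 against WT, leaving out WT replicate 3 ended the calls of MVD, IDI1, NSDHL and INSIG1, MVD was also lost without ESX1 replicate 2, and LSS without ESX1 replicate 3. FDFT1, FDPS, SQLE, EBP, DHCR7, STARD4, ACLY and ABCA1 passed against WT in all 9 fits of both comparisons. All 3 WT samples lay above all 6 transfected samples for 10 members, among them FDFT1, SQLE, DHCR7 and ACLY (14.4% of all tested genes), and below them for ABCA1 (10.5%). Whatever the third WT sample did, WT replicates 2 and 3 both lay above all 6 for 20 members (20.5%). WT replicate 1 lay above all 6 for 11 (24.8%), whatever the other WT samples did. Both counts include the 10 members with all 3 WT samples above.

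Synthesis and efflux were set side by side in each sample as the mean log2 CPM (prior count 2) of the 22 synthesis genes less that of the 3 efflux genes and LXR targets. The difference was 1.80, 2.10 and 2.23 in WT, 1.09, 0.98 and 1.02 in NC, and 0.74, 0.84 and 1.24 in ESX1. All WT samples were above all transfected samples, and NC and ESX1 overlapped. The means were 2.04 ± 0.221 (SD, n = 3), 1.03 ± 0.0564 (SD, n = 3) and 0.94 ± 0.264 (SD, n = 3). As the genes were chosen with results of these data known, no test was made on this quantity. The synthesis genes alone averaged 5.39, 5.83 and 6.10 in WT, 5.10 to 5.20 in NC and 5.15 to 5.23 in ESX1. The efflux side averaged 3.59 to 3.87 in WT, 4.08 to 4.20 in NC and 3.99 to 4.41 in ESX1, and of its 3 genes ABCA1 was the 1 that passed a test. In ESX1 against NC the difference of means was -0.09, and it was 0.01 without ESX1 replicate 1.

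**Figure D4:**
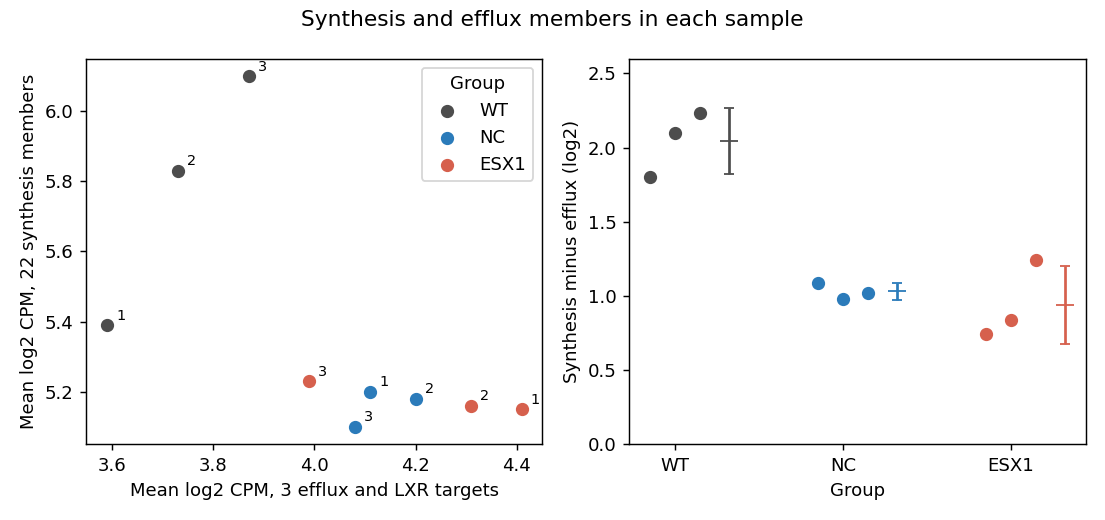
Left, mean log2 CPM of the 22 synthesis genes against that of the 3 efflux genes and LXR targets, 1 point a sample, numbered by replicate. Right, the difference of both means in each sample, with group mean and SD; the WT samples lie between 1.80 and 2.23 and the 6 transfected samples between 0.74 and 1.24.

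Levels of different genes were compared as CPM per kilobase of exon in WT. ACLY (85.6 ± 11.7) and FASN (81.0 ± 10.7) were the most abundant and did not differ beyond their spread (all SD, n = 3). FDFT1 (44.3 ± 14.6), SQLE (40.3 ± 16.0) and MSMO1 (30.3 ± 10.3) followed, each within the spread of its neighbour. SCAP (11.0 ± 0.993) and SREBF2 (10.1 ± 2.0) were the 14th and 15th of the 31 members in this order, and SREBF1 (6.37 ± 0.778) was the 23rd. CYP51A1 (1.27 ± 0.238) and ABCG1 (0.705 ± 0.333) were the lowest.

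Some of these levels are held down by how reads were assigned. Reads that touch exons of more than 1 gene were not counted and strand was not used, and 82.2% of the exon bases of CYP51A1 and 52.27% of those of ACAT2 are shared with another gene. CYP51A1 had 19 to 57 counts in a library and 3 pseudogenes with counts equal to 30.03% of its own. FDPS has 8 pseudogenes with 13.37% of its counts and HSD17B7 has 2 with 25.67%, and between such near copies reads can be split. The levels of these 4 genes are uncertain for that reason.

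The neighbouring pathway genes were taken from 6 lists of 60 genes, of which 57 were tested. Over all genes tested, 6.82% were higher and 10.3% lower in NC than in WT, 12.9% and 15.8% in ESX1 than in WT, and 1.88% and 2.37% in ESX1 than in NC. Among 9 tested genes of other steps of sterol synthesis and of lipoprotein uptake, 5 were lower and 1 higher in NC than in WT, 5 and 1 in ESX1 than in WT, and 2 and 1 in ESX1 than in NC. VLDLR, a receptor for triglyceride-rich lipoproteins, was higher in ESX1, at 38.6, 33.3 and 33.2 CPM against 14.0, 15.5 and 15.6 CPM in NC and 14.1, 4.52 and 5.85 CPM in WT (log2 1.22 against NC, adjusted p = 0.0117, lost without any 1 of the NC samples, and 2.08 against WT). Its call in NC against WT (0.86, adjusted p = 0.0457) was lost in 7 of 19 alternatives.

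Among 12 genes of other fatty acid and glycerolipid synthesis, 6 were lower and 1 higher in NC than in WT, 5 lower and 2 higher in ESX1 than in WT, and 1 lower and 1 higher in ESX1 than in NC. FADS1, the delta-5 desaturase of long fatty acids, was at 30.1, 49.7 and 58.0 CPM in WT, 27.3, 27.4 and 26.8 CPM in NC and 145, 155 and 115 CPM in ESX1. It was lower in NC and higher in ESX1, each against WT (log2 -0.76, adjusted p = 0.00961, lost without WT replicate 3, and 1.60, adjusted p = 5.59e-06), and 5.11-fold higher in ESX1 than in NC (log2 2.35, adjusted p = 9.38e-07). FADS2, the delta-6 desaturase, stayed low in both transfected groups, at 66.7, 126 and 158 CPM in WT, 47.2, 41.3 and 44.2 CPM in NC and 61.1, 59.7 and 51.5 CPM in ESX1 (log2 -1.40 and -1.02 against WT). ELOVL6, an elongase of fatty acids, was at 133 to 151 CPM in WT, 66.3 to 75.0 CPM in NC and 28.4 to 44.7 CPM in ESX1 (log2 -0.99 in ESX1 against NC, adjusted p = 5.85e-04). ME1, malic enzyme, which makes NADPH, was higher in ESX1 than in WT (log2 1.31, adjusted p = 0.00109), and its call in NC against WT (0.78, adjusted p = 0.0484) was lost in 7 of 19 alternatives. Among the 6 that were lower in NC, SLC25A1, the citrate carrier of mitochondria (-0.47, adjusted p = 0.0494), lost its call in 14 of 19 alternatives and MID1IP1 (-0.64, adjusted p = 0.0192) in 4.

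Fewer genes passed in the other lists. The 8 isoprenoid branch genes use the products of the mevalonate arm for other purposes, and 0 passed in each of the 3 comparisons by edgeR. At an unadjusted p below 0.05 were 2, 2 and 1 in NC against WT, ESX1 against WT and ESX1 against NC. Over the 18452 tested genes, 5744, 7324 and 2953 were, in the same order. FNTA had the smallest adjusted p in ESX1 against NC, 0.183 (log2 0.29). Of the 10 genes that process SREBP or degrade sterol enzymes, 1 was lower in NC than in WT, and 3 were higher and 1 lower in ESX1 than in WT; RNF139, a ubiquitin ligase of the endoplasmic reticulum, was lower in both, at -0.65 and -0.42, the latter (adjusted p = 0.0265) lost in 8 of 19 alternatives. SYVN1, among the 3 that were higher (0.69, adjusted p = 0.0430), lost its call in 6, and INSIG2 (0.68, adjusted p = 0.0324) in 3. Of 9 tested genes of sterol trafficking, esterification and oxidation, 2 were higher and 2 lower in each transfected group than in WT. Those higher in NC, SOAT1 (0.42, adjusted p = 0.0495) and OSBP (0.36, adjusted p = 0.0409), each lost the call in 6 of 19 alternatives, and NPC2, lower in NC (-0.49, adjusted p = 0.0344), in 7. NPC1, which exports cholesterol from lysosomes, was higher in ESX1 than in WT, at 0.61 (adjusted p = 0.00124). Of 9 tested genes of LXR and its other targets, 2 were lower in ESX1 than in WT, among them APOE, the apolipoprotein of cholesterol transport (log2 -0.67, adjusted p = 0.00660).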

How the data were processed

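RNA-seq counts of 9 TCam-2 samples (3 each of WT, NC and ESX1, grouped by the sample titles) were used. The authors prepared ribosomal-RNA-depleted stranded libraries, aligned the pairs with HISAT2 2.0.5 (GRCh38.p7), and counted fragments per gene with featureCounts. The deposited counts are raw. The header of the count table names featureCounts 1.5.2, GENCODE 26, and neither strand nor multi-overlap counting, while the submitters' processing notes name featureCounts 1.6.5. The authors also deposited log2 values normalized with DESeq2 (lowest value 4.18), which carry symbols without gene identifiers and were joined to the counts row by row. The join was checked, since in all 9 samples the log2 value rose one to one with the count. Of 63856 listed genes, 58219 lie on primary chromosomes, and the 5637 others had 0 counts.

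The analysis used edgeR 4.0.16 under R 4.3.3. filterByExpr kept 18452 of 40330 genes with a count. Libraries were scaled with TMM, 3 group means were fitted to all 9 samples with glmQLFit (common dispersion 0.0277, 6 residual degrees of freedom), and pairs of groups were compared with glmQLFTest, whose p-values were adjusted by the method of Benjamini and Hochberg across the 18452 genes. Genes were called at an adjusted p below 0.05, and in a second count also at 2-fold or more, after the study's threshold, since the study names no test. The standard error is the log2 fold change divided by the root of F. Total counts were 5212804 to 10644408, and log2 CPM of replicates correlated at 0.967 to 0.980 across genes. The p-values rest on 3 biological replicates a group. The script was tested on simulated data, where for ESX1 against NC 78.0% of 2-fold changes and 21.0% of 1.5-fold changes were recovered.

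The members and lists were chosen with earlier results of these data known. Named were all members, from the related lists the genes past 2-fold in any comparison and the gene of each list with the smallest adjusted p in ESX1 against NC, and marker lists as sums. Some genes that this rule names are not reported here. Alternatives were DESeq2 1.42.0, RLE and upper-quartile factors, other count filters, a replicate block, only the 6 samples compared, limma 3.58.1 on the deposited log2 values, removal of 37 mitochondrial genes, and leaving out each sample, with thinning of every library to 5212804 counts added after seeing the data.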

Additional observations from a re-analysis of the deposited data

How the results depend on the processing

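The direction held in every alternative for each member that passed a test, in that fit or in the alternative. Of 1767 single-member values under the alternatives, 37 changed sign, 0 of them called. In 1601 planned values the side of the threshold stayed, in 49 a call was lost and in 24 it was gained, and thinning left 91 and lost 2. The count of members higher in ESX1 than in NC, 0, was 2 with no filter beyond 1 count (HMGCS1 and MSMO1), and it was 0 to 1 with a sample left out. The count lower in ESX1 than in NC, 1, was 0 to 1, and that of members higher in ESX1 than in WT, 1, was 1 to 2. Members past 2-fold in ESX1 against WT, 5, were 3 with upper-quartile factors, 2 by limma on the authors' log2 values and 2 to 11 with a sample left out. In NC against WT, 16 lower members became 10 to 20 and 6 past 2-fold became 2 to 12 with a sample left out. The synthesis minus efflux difference of ESX1 against NC, -0.09, ranged from -0.24 to 0.01. The cause of these changes was not tested. The replicate block used the numbers in the sample titles, from which the library names of 2 of the 3 ESX1 samples differ. Same-numbered samples of ESX1 and NC had correlated deviations of 0.193, 0.0912 and 0.0157, those of ESX1 and WT 0.0571, 0.0486 and -0.00582, and those of NC and WT -9.21e-04, 0.0222 and -0.0296, and 5 of 9 samples lay closest to their own number, so the numbers were not taken as pairs. With the block 1 member was higher in ESX1 than in NC (MSMO1), 19 were lower in ESX1 than in WT in place of 16, and over all genes 1052 were called in ESX1 against NC in place of 784. CYP51A1 and ABCG1, at 19 counts in a library, are the members that depth limits most.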
